A study of Mus musculus with 10 samples.

Results

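The 5 U3 RNA genes of the mouse, Rnu3a, Rnu3b1, Rnu3b2, Rnu3b3 and Rnu3b4, were followed through ChIP-seq peak lists of the HMG-box transcription factors SOX2 and SOX15 in mouse embryonic stem cells. They were taken by name from 49550 RefSeq genes on the 20 chromosomes with peaks, and a peak was assigned to a gene when its summit, the point of highest signal, lay within 1 kb of it. The genes were chosen by the peaks seen at them in these same lists, so their peaks are described here with no test. Each factor carried an HA tag from its own knock-in locus, and the culture medium was 2i/LIF, which keeps the naive state; crosslinking was done in 1% formaldehyde over 5 min. The groups are 2 libraries of SOX2-HA ChIP and 3 of SOX15-HA ChIP; the 5 input libraries, 2 for SOX2 and 3 for SOX15, were not analysed here. Neither was any precipitation from untagged cells, so the level of the peaks below in unprecipitated or untagged chromatin was not measured here. The number of clones behind each tagged line, and whether replicates were separate cultures, are not given in the sources used here, so spread between replicates may be technical.

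U3 is a box C/D small nucleolar RNA. It base-pairs with the precursor of ribosomal RNA and nucleates the small subunit processome, the large complex in which the early cleavages that release 18S rRNA take place. Unlike most mammalian box C/D RNAs, which are cut out of introns of host genes, U3 is transcribed by RNA polymerase II from a promoter of its own. That promoter is of the type of the spliceosomal U RNA genes, bound by the SNAP complex upstream of the start, and the RNA receives a trimethylguanosine cap. U3 is abundant in dividing cells, and the mouse carries several near-identical copies.

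Every U3 gene had a peak in every library. In each of the 5 lists the count was 5 of 5, with exactly 1 summit within 1 kb of each gene, which made 25 distinct peaks. Over all genes the share with a summit within 1 kb was 3.16% and 4.98% in SOX2 replicates 1 and 2, and 0.39%, 1.14% and 0.783% in SOX15 replicates 1, 2 and 3. A summit in all 5 libraries was found at 90 genes (0.182%), and at 32 of 1003 genes (3.19%) of the snRNA class, in which RefSeq places U3. Since these lists chose the members, nothing is read from the difference. The lists held 2676 and 4817 peaks for SOX2, and 217, 672 and 437 for SOX15. They give no read counts, so depth and the error of a single peak are unknown.

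The genes occupy 2 loci in mm10. Rnu3a stands alone on chromosome 10 (40258468 to 40258679, 212 bp), 756 bp from Gtf3c6, which encodes a subunit of the polymerase III factor TFIIIC. The other 4 lie within 28346 bp of chromosome 11, in the order Rnu3b1 (87443237 to 87443451), Rnu3b3 (87448627 to 87448841), Rnu3b4 (87462286 to 87462503) and Rnu3b2 (87471368 to 87471582). Each is 215 bp long, except Rnu3b4 with 218 bp. All 4 fall inside the bounds of Tex14, a germ cell gene of the intercellular bridge; the table gives no exons or strand, so introns, exons and the direction of transcription cannot be told apart. Rnu3b1 also lies inside LOC115487798, a long noncoding RNA gene. The gaps between neighbouring copies are 5175, 13444 and 8864 bp, and every copy had its own peak.

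At Rnu3a the fold enrichment, the peak caller's linear ratio of signal to background at the summit, was 15.5 and 30.2 in SOX2 replicates 1 and 2. In SOX15 replicates 1, 2 and 3 it was 38.4, 56.4 and 52.4 (mean 49.1 ± 9.45, SD, n = 3). Each SOX15 value stood above both SOX2 values. Folds belong to their own list, however, and lists differ in length and threshold, so this order is no measure of relative binding.

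At Rnu3b1 the SOX2 folds were 41.2 and 20.8, and the SOX15 folds 48.1, 52.8 and 72.7 (mean 57.9 ± 13.1, SD, n = 3). The ranges of the 2 factors again did not overlap. Rnu3b1 had the highest SOX15 mean of the 5 copies, and the value in SOX15 replicate 3 was the second highest fold of that whole list.

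At Rnu3b3 the SOX2 folds were 51.6 and 23.8, and the SOX15 folds 58.7, 24.5 and 58.9 (mean 47.4 ± 19.8, SD, n = 3). Here the factors overlapped, with SOX15 replicate 2 close to the lower SOX2 value. In SOX2 replicate 1 and in SOX15 replicate 1 this copy ranked 2 of the whole list.

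At Rnu3b4 the SOX2 folds were 12.3 and 22.4, and the SOX15 folds 38.5, 18.4 and 43.4 (mean 33.4 ± 13.2, SD, n = 3). SOX15 replicate 2 was the low library, and lay between the SOX2 values.

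At Rnu3b2 the SOX2 folds were 5.77 and 11.9, and the SOX15 folds 8.75, 38.8 and 23.4 (mean 23.7 ± 15.05, SD, n = 3). SOX15 replicate 1 fell between the SOX2 values, and SOX15 replicate 2 was 4.44 times replicate 1, the widest ratio between replicates of a factor at any copy. Without SOX15 replicate 2 the mean was 16.1.

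All 3 SOX15 folds exceeded both SOX2 folds at 2 of the 5 genes, Rnu3a and Rnu3b1. Among the 90 genes with a summit in all 5 libraries the share was 53.3%, and neighbouring genes there can share a peak. The 2 SOX2 libraries went opposite ways between copies. Replicate 1 was the higher at Rnu3b1 and Rnu3b3, and replicate 2 was the higher at Rnu3a, Rnu3b2 and Rnu3b4.

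**Figure D1:**
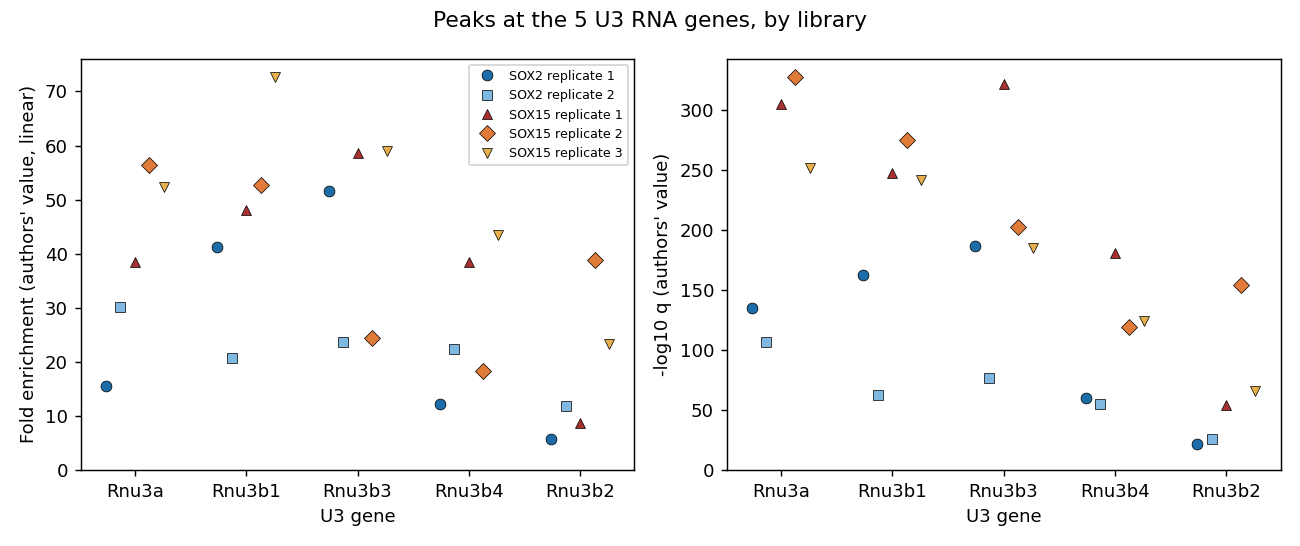
Fold enrichment (left, linear axis from 0) and −log10 q (right) of the peak at each U3 gene, the chromosome 11 copies in chromosomal order; each point is 1 library, coloured by factor and replicate, with no averaging. Rnu3b2 holds the lowest fold in 4 of the 5 libraries, and Rnu3b4 and Rnu3b2 hold the lowest 2 values of −log10 q in each.

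Within a list the copies were not equal. The strongest copy exceeded the weakest 8.94 and 2.53 times in SOX2 replicates 1 and 2, and 6.71, 3.06 and 3.11 times in SOX15 replicates 1, 2 and 3. The weakest by fold was Rnu3b2 everywhere but in SOX15 replicate 2, where it was Rnu3b4. The strongest was Rnu3b3 in SOX2 replicate 1 and SOX15 replicate 1, Rnu3a in SOX2 replicate 2 and SOX15 replicate 2, and Rnu3b1 in SOX15 replicate 3. Kendall's tau between the fold order of the 5 copies in 2 libraries, given as a description over 5 points from the same libraries, whose reads may be shared between copies, ran from -0.2 to 0.8 over the 10 pairs of libraries.

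By −log10 q, the caller's confidence that a peak exceeds background, the order was steadier. Rnu3a, Rnu3b1 and Rnu3b3 took the first 3 places in each library, and Rnu3b4 and Rnu3b2 the other 2. Values for Rnu3a were 135 and 107 in SOX2 and 305, 328 and 252 in SOX15. For Rnu3b2 they were 21.8 and 26.3 in SOX2 and 54.3, 154 and 66.3 in SOX15. At Rnu3b2 every value of either factor was thus below the corresponding value at Rnu3a. Peak width gave the same split: Rnu3b2 had the narrowest peak of the 5 in each library (275 to 443 bp) and Rnu3b4 the next (485 to 605 bp), while the other 3 copies ranged from 616 bp at Rnu3b1 to 979 bp at Rnu3a.

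In the SOX15 lists the U3 peaks sat near the top. Their median fold was at the 94.2, 97.7 and 98.3 percentile of replicates 1, 2 and 3, and 4, 3 and 4 of the 5 copies were among the 25 highest folds. The copies ranked 2 to 98 of 217, 4 to 41 of 672 and 2 to 27 of 437. The median U3 fold was 4.62, 7.31 and 8.18 times the median of its list. The low end in replicate 1 was Rnu3b2, at 1.05 times the list's median.

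In the SOX2 lists the U3 peaks lay between the 11.9 and 99.9 percentile of fold in replicate 1. In replicate 2 they lay between the 76.1 and 98.1 percentile. The median U3 fold was at the 87.0 and 94.8 percentile of replicates 1 and 2, with 2 copies and 0 copies among the 25 highest folds. Rnu3b3 and Rnu3b1 ranked 2 and 9 of 2676 in replicate 1, whereas Rnu3b2 ranked 2358, under the median of the list (0.694 times). By −log10 q the same Rnu3b2 peak ranked 776 and Rnu3a moved from 349 to 27. In replicate 2 the highest was Rnu3a, at 92 of 4817. The 25 highest folds are a different share of each list. Ranks and such counts from lists of such different length were not compared between factors.

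**Figure D2:**
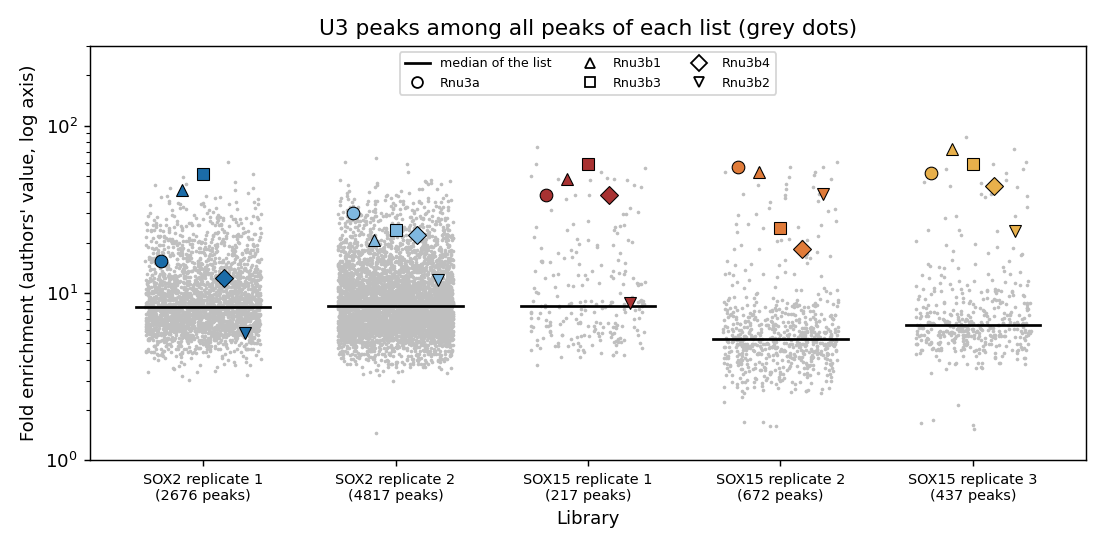
Fold enrichment of all peaks of each list (grey dots, spread sideways at random) on a log axis, with the list's median (black line) and the U3 peaks (coloured symbols, 1 shape per gene). In SOX15 replicates 2 and 3 all 5 U3 peaks lie far above the median, while Rnu3b2 lies at 1.05 times the median in SOX15 replicate 1 and below it in SOX2 replicate 1.

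The summits were close to the genes and on the same side of each Rnu3b copy. All 20 summits at the Rnu3b copies lay past the end with the higher coordinate, by 23 to 153 bp (median 65.5). At Rnu3a, 3 of 5 summits were inside the gene, at 158 to 164 bp from its low end (SOX2 replicate 2 and SOX15 replicates 1 and 3), and the others were 49 bp (SOX2 replicate 1) and 30 bp (SOX15 replicate 2) past its high end. No summit lay below the low end of any U3 gene. Which of these ends is the start of transcription is not in the table used.

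The place of the summit varied between libraries by different amounts. At Rnu3b2 the 5 summits fell within 14 bp of each other, at 52 bp past the gene in 3 libraries, 51 bp in SOX15 replicate 1 and 65 bp in SOX2 replicate 1. At Rnu3b4 there were 2 positions, 152 and 153 bp past the gene in SOX15 replicate 2 and SOX2 replicate 1, and 49 to 66 bp in the other libraries. At Rnu3b1 the distances were 93 and 64 bp in SOX2 and 89, 103 and 26 bp in SOX15. At Rnu3b3 they were 95 and 95 bp in SOX2 and 77, 118 and 23 bp in SOX15. SOX15 replicate 3 had the summit closest to the gene at both of these copies, and SOX15 replicate 2 the farthest. SOX2 and SOX15 summits were interleaved at each gene but Rnu3b2, where SOX2 replicate 1 was the farthest and the others differed by 1 bp.

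The extents of the peaks were lopsided in the same direction. Each of the 20 Rnu3b peaks began inside its gene, 15 to 89 bp from the low end, and none covered the gene fully (58.6 to 93.0% of its bases). Each ended beyond the high end, by 149 to 653 bp. The reach past the high end was shortest at Rnu3b2 (149 to 285 bp), then Rnu3b4 (341 to 460 bp), Rnu3b1 (442 to 545 bp) and Rnu3b3 (504 to 653 bp). At Rnu3a all 5 peaks covered the whole gene, reaching 61 to 287 bp below it and 353 to 623 bp above it. In all 25 peaks the stretch above the gene was the longer. As a result 54.2 to 78.9% of each peak lay outside the U3 gene.

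**Figure D3:**
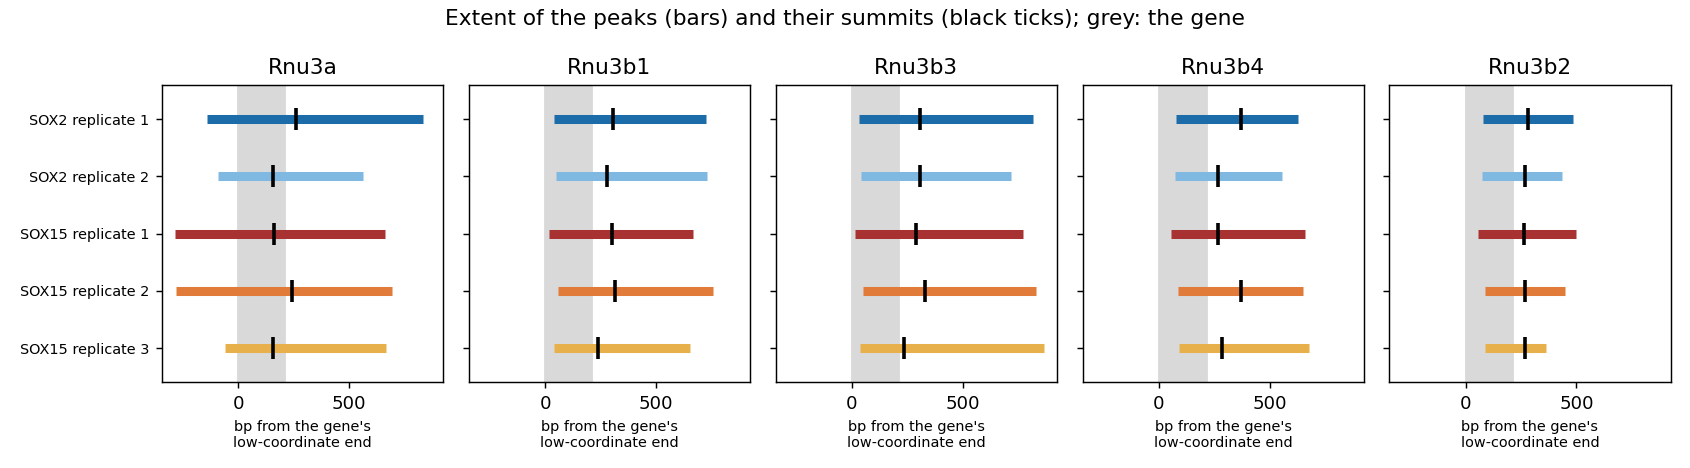
Peak extents (coloured bars) and summits (black ticks) of the 5 libraries at each U3 gene, in bp from the end of the gene with the lower coordinate; grey marks the gene. The Rnu3b peaks start inside the gene and end past its high side, whereas the Rnu3a peaks span the gene.

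Reads shared between copies limit what these values say of a single copy. A read that matches several copies equally can be placed at any of them or left out, and the sources used here do not say how such reads were treated. No sequence of the members was used here, so the length of the stretches that copies share, inside or outside the gene, was not measured. What the lists do show is that the copies did not receive equal values: Rnu3b2, for example, had 0.112 of the fold of Rnu3b3 in SOX2 replicate 1 and 0.149 of it in SOX15 replicate 1, while in SOX15 replicate 2 it had the higher fold of these 2 copies. The part of shared reads in this spread, and in the places of summits and peak edges given above, was not tested. The Rnu3b pseudogenes had no peak. RefSeq lists 3 of them, Rnu3b-ps1 on chromosome 19 (4078298 to 4078512), Rnu3b-ps2 on chromosome 2 (121004089 to 121004303) and Rnu3b-ps3 on chromosome 12 (102253373 to 102253785). A summit within 1 kb was found at 0 of 3 in the 5 libraries, and the nearest summit of any library was 235554, 266364 and 261139 bp away in that order. With the all-gene shares given above, 0 of 3 is not set apart from genes at large. The likeness of the pseudogenes to the U3 copies was not measured, so their lack of peaks says nothing here about shared reads.

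Within 10 kb of the U3 genes the only peaks were those at U3 genes. How often other peaks of these lists have an empty 10 kb around them was not measured, so the spacing is a description. No summit lay between 153 bp and 10 kb of a U3 gene except those of the neighbouring U3 copies. The nearest other summit to the chromosome 11 copies was 16286 to 16339 bp from Rnu3b1, at the snRNA gene Gm22068 (87426716 to 87426879), with folds of 26.8 and 25.9 in SOX2 and 24.8, 56.5 and 45.4 in SOX15. At Rnu3a the nearest other summit was 185528 bp away in SOX2 replicate 2 and farther in the other libraries, up to 40924305 bp in SOX15 replicate 1. The 1 kb rule also assigned U3 peaks to Gtf3c6, Tex14, LOC115487798 and the snRNA gene Gm23137. The bounds of Tex14 also hold the peaks at Gm22068 and at the U1 gene Rnu1a1, so Tex14 has SOX15 peaks besides those at U3.

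Most of a chosen set of other small RNA genes with this kind of promoter had peaks in the same 5 lists. The set was chosen with earlier results of these data known, so its share describes these genes and not the class. A summit in all 5 libraries was found at 0.182% of all genes and 3.19% of the snRNA class. Of 12 such genes listed, 11 were found in the table, and the same 8 had a summit within 1 kb in all 5 libraries. These were Rnu1a1, Rnu2-10, Rnu5g, Rnu11 and Rnu12 of the spliceosomes, Rnu7 of histone mRNA 3′ end formation, Snord118 (U8, which acts on the large ribosomal subunit) and Snord13 (U13, another RNA of rRNA processing). The 3 without a peak were the U1 copies Rnu1b1, Rnu1b2 and Rnu1b6. Whether reads that match several U1 copies were left out there was not tested. The highest by mean percentile rank was Rnu11, a U RNA of the minor spliceosome, with folds of 33.9 and 24.8 in SOX2 and 48.0, 29.9 and 37.9 in SOX15. Snord13 was the lowest, with 11.2 and 5.46 in SOX2 and 22.8, 14.6 and 18.5 in SOX15. The median fold over these 8 genes was 22.7 and 15.6 in SOX2 and 27.5, 33.6 and 38.4 in SOX15, against 15.5 and 22.4 in SOX2 and 38.5, 38.8 and 52.4 in SOX15 over the U3 genes. The U3 median fold was thus the higher in 4 lists and the lower in SOX2 replicate 1. By median percentile of −log10 q, U3 was the lower only in SOX15 replicate 2 (97.4 against 97.5). In SOX2 replicate 1 that percentile was 99.0 for U3 against 98.7. Summits at these 8 genes lay at a median distance of 45.5 bp from the gene against 52 bp for U3. Peak cover differed: 37 of the 40 peaks at these 8 genes spanned the whole gene, against 5 of 25 at U3 and 0 of 20 at the Rnu3b copies. These genes are shorter (62 to 187 bp), and the 3 exceptions were at Rnu2-10, the longest of them. Their peaks were lopsided too: at each of the 8 genes the longer reach was on the same side in all 5 libraries. In SOX2 replicate 1, for example, it was 766 bp below and 156 bp above Rnu5g, and 208 and 745 bp at Rnu1a1.

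Genes of other kinds of small RNA were compared in the same way. Of 9 RNA polymerase III genes listed, 7 were found in the table (Rnu6, Rn7sk, Rn7s1, Rn7s2, Rmrp, Rpph1 and Vaultrc5), and 0 had a summit within 1 kb in any library; with the all-gene shares given above, 0 of 7 is not set apart from genes at large. Some of these, such as the U6 and 7SK genes, use SNAP-dependent promoters too. Of 13 box C/D RNAs from introns of host genes, the class U3 resembles as an RNA, 4 had a summit in at least 1 library and 0 in all 5. The counts were 3 and 0 in SOX2 and 0, 3 and 3 in SOX15, beside 1.49% and 0.597% of the 1340 snoRNA genes of the table in SOX2, and 0.373%, 1.12% and 1.12% in SOX15. They were Snord22, in SOX2 replicate 1 alone (fold 5.67), and Snord49a, Snord49b and Snord65, which lie close together on chromosome 11. Snord49a and Snord49b shared 1 peak, with folds of 5.25 in SOX2 replicate 1 and 6.37 and 7.03 in SOX15 replicates 2 and 3. Over the 9 gene and library pairs with a peak, these 4 genes lay a median of 403 bp from the summit.

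Some genes for the protein partners of U3 had a peak in some of the libraries. Of 36 genes of the U3 particle and the small subunit processome, 4 had a summit within 1 kb in at least 1 library and 0 in all 3 SOX15 libraries. The counts were 1 and 1 in SOX2 and 0, 2 and 3 in SOX15. At Nop56, which encodes a core box C/D protein, SOX15 replicates 2 and 3 gave folds of 6.82 and 7.07. Ncl, the gene of nucleolin, had 7.77 and 5.23 in SOX2 and 5.56 in SOX15 replicate 3. Emg1, a methyltransferase of 18S rRNA, had 5.70 in SOX15 replicate 3, and Nat10, an RNA acetyltransferase, had 2.96 in SOX15 replicate 2. Fbl, Nop58, Snu13 and Rrp9, the other proteins bound directly to U3, had none. Among 17 genes for the transcription and maturation of U RNAs (Rrp9 is on this list too, under an older name), Pou2f1, the gene of the octamer factor OCT1, had folds of 5.25 and 11.1 in SOX2, and Snapc5, a SNAP complex subunit, had 3.79 in SOX15 replicate 3. Shares of these lists can be read against the 5.27% and 8.27% of protein-coding genes with a summit within 1 kb in SOX2, and 0.62%, 1.95% and 1.23% in SOX15. The share of the 36 partner genes was lower than this in both SOX2 libraries and SOX15 replicate 1. It was higher in SOX15 replicates 2 and 3. Nothing is read from counts this small.

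**Figure D4:**
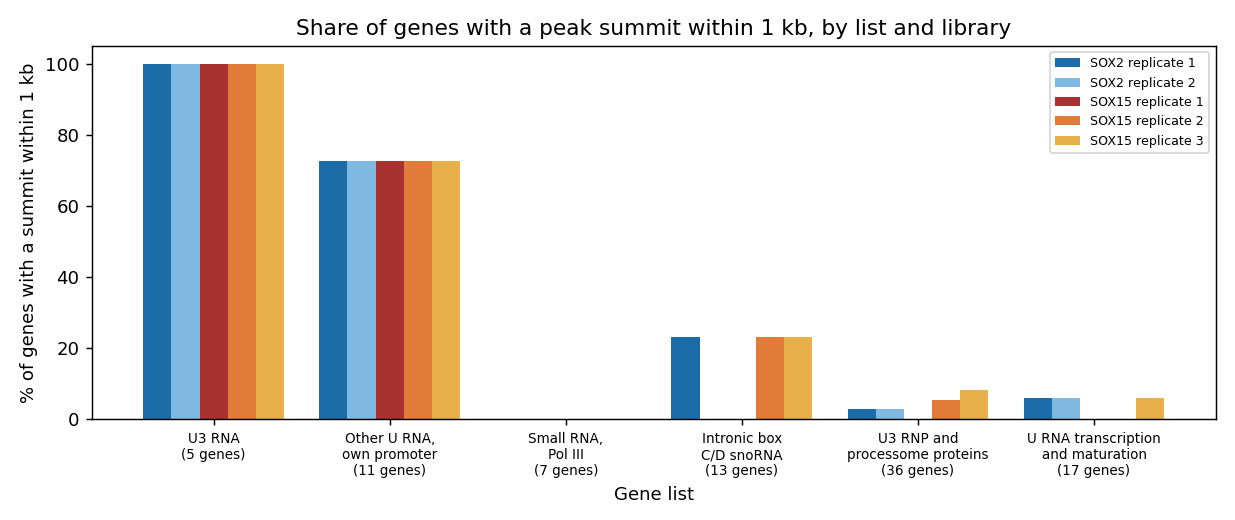
Percentage of the genes of each list with a peak summit within 1 kb (bars from 0, 1 bar per library). The U3 genes reach 100% and the other U RNA genes with their own promoter the same 8 of 11 in each library, while the polymerase III list is at 0 throughout.

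The genes most like U3 in their place within the lists were also at U RNA genes. Likeness was the mean absolute difference between a gene's 5 percentile ranks and the median ranks of the U3 genes, over 82 genes with a summit in all 5 libraries that shared no peak with U3. The 5 closest were Gm40527 (difference 1.41 points), Rnu5g (1.58), Gm25313 (3.58), Gm22265 (3.68) and Hhat (3.68). Gm40527 is a long noncoding RNA gene whose bounds on chromosome 9 hold both Rnu5g and the snRNA gene Gm25313. Its folds were those of Rnu5g in SOX2 and those of Gm25313 in SOX15, so its difference is not that of a single snRNA gene. Hhat, the acyltransferase of Hedgehog proteins, holds the snRNA gene Gm22265 on chromosome 1, with which it shares its peaks, so the 5 names stand for 3 snRNA loci. Genes with a summit in all 5 libraries were themselves rich in such loci. Of these 90 genes, U3 included, 32 were of the snRNA class. At Rnu5g, a U5 gene, folds were 18.4 and 21.3 in SOX2 and 36.3, 35.3 and 45.6 in SOX15.

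The cell label can be checked only through the loci bound. A SOX2 summit lay within 50 kb of each of the 6 pluripotency genes Pou5f1, Nanog, Esrrb, Sox2, Klf4 and Tfcp2l1 in both SOX2 libraries. SOX15 replicates 1, 2 and 3 had summits near 1, 2 and 4 of the 6. The share of all genes with a summit within 50 kb is not given here, so these counts are a weak check.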

How the data were processed

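Peak lists of 5 ChIP libraries in mouse embryonic stem cells were used, 1 list per sample. The submitters' processing notes name Bowtie2, MACS2, deepTools and the build mm10 and give no versions; the control used in calling, the treatment of reads with several matches and filters are not given in the sources used here. Per peak the authors deposited an integer score, a fold enrichment (linear ratio), p-value and q-value as −log10, and the summit offset; truncating 10 times the −log10 q-value gives the deposited score in all 5 lists. The smallest −log10 q-value was 2.10 and 2.20 for SOX2, and 2.76, 2.03 and 1.31 for SOX15.

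Gene positions came from RefSeq GRCm38.p6, which shares mm10 coordinates. A gene took the peak of highest fold with a summit within 1 kb (distance 0 inside the gene). Percentiles are ranks of fold within a list. No test was made. The members and lists were chosen with earlier results of these data known. Named genes were the members, list genes with a peak in every SOX15 library (up to 6 by rank), the 5 most alike genes and neighbours within 10 kb; of the other U RNA genes all 8 are named, and list genes with peaks in fewer libraries were named after their values were seen. The planned comparison of copy sequences and the motif search were not run. Distances and calls were tested on simulated data. Scripts ran on Python 3.11.15 with scipy 1.17.1, pandas 2.3.3, matplotlib 3.10.9 and numpy 2.4.6.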

Additional observations from a re-analysis of the deposited data

How the results depend on the processing

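The count of U3 genes with a peak was 5 of 5 in each library, and 5 in all libraries together, under each of 5 alternatives: a summit within 500 bp, a summit within 2 kb, a peak overlapping the gene body, and −log10 q of at least 2.76 or of at least 10. It was also 5 without each library in turn. Leaving out a library or widening the window could not lower a count that was already 5 of 5. The genes were chosen by these same peaks, so none of these settings is an independent check. Mean folds per copy did not change with the window or with the nearest summit in place of the strongest, since each gene had 1 peak. Ranking by −log10 q in place of fold moved the median percentile of the U3 peaks from 87.0 to 99.0 in SOX2 replicate 1 and from 94.2 to 96.5 in SOX15 replicate 1; in the other 3 lists it moved by less than the spread between replicates. Leaving out a replicate moved the mean fold over 1.5 times at 2 copies: SOX2 at Rnu3b3 was 37.7 ± 19.6 (SD, n = 2), and 23.8 without replicate 1; at Rnu3b2 it was 8.85 ± 4.36, and 5.77 without replicate 2. Counting copies of like sequence as 1 was not run. No fit with the replicate number as a block was made, since no test was run. With depth unknown, a gene with no peak can still hold signal too weak for the caller. Reads left out because they match several places could also hide signal there, which was not tested.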
